A study of Mus musculus with 4 samples.

Results

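The Zfp genes are the mouse genes named for zinc finger proteins. They were taken here as the genes whose symbol begins with Zfp followed by a digit, Zfp346 excepted, in the annotation of probe sets that carry 1 gene symbol. The rule found 335 of 18193 genes, on 620 probe sets, and used no measured value. Each gene was read at its brightest probe set. Of these genes 327 are protein-coding in the RefSeq gene table, 5 are pseudogenes, transcribed or not, and 3 are noncoding RNAs, among them Zfp652os and Zfp85os, which lie opposite a Zfp gene.

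Most Zfp proteins hold tandem C2H2 fingers, each of which folds around a zinc ion and reads a few bases of DNA. Many carry a KRAB domain at the amino terminus, which recruits the corepressor Trim28 and with it the histone methyltransferase Setdb1 and heterochromatin proteins. KRAB zinc finger genes multiply by tandem duplication and therefore lie in clusters, and several silence retroelements or keep imprints. Some genes named Zfp are of another kind, such as the CCCH finger proteins that bind AU-rich messenger RNAs.

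Cytoplasmic RNA of Neuro2A, a mouse neuroblastoma line, was hybridised to 4 Affymetrix arrays, of which 2 came from cells depleted of the small noncoding RNA 4.5SH (4.5SH KD, called the knockdown) and 2 from control cells. Antisense oligonucleotides were used at 30 nM, and the input was 200 ng of poly(A) RNA for each sample. What the control cells received is not stated in the labels, so effects of 4.5SH loss and of the transfected oligonucleotides cannot be told apart. The labels call the replicates biological without saying whether dishes were transfected separately, so p-values measure only the spread between these samples. The study asked which messenger RNAs that carry B1 repeats in antisense are affected when 4.5SH is lost, and the level of 4.5SH itself was not analysed here.

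Values are MAS5 signals, the Affymetrix summary of a probe set on a linear scale. Differences are log2(signal + 16), knockdown minus control, so those of dim genes are understated. The trimmed mean signal of the 2 knockdown arrays, 128 and 132, was below that of the 2 control arrays, 149 and 143. Precision is limited by there being 4 arrays. Neuronal markers were detected, with mean signals of 3811 for Stmn2, 1514 for Hand2 and 1164 for Phox2a, whereas Nefl, Nefm, Th and Gata3 were below the filter on dim probe sets. Of 5 leukocyte markers Ptprc read 2.35 and Itgam 6.15. Their summed signal, nearly all of it from Cd68, came to 358 and 380 on knockdown arrays, against 677 and 780 on control arrays, and its part in the results was not tested.

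Among the Zfp genes rises outnumbered falls on the deposited scale, though not with spike-in scaling, whereas among all genes falls outnumbered rises on both. Of 335 Zfp genes 264 passed the filter, a mean signal above about 16.4, and were tested. Of these 53 rose, 35 fell and 176 did not pass (limma, Benjamini-Hochberg adjusted p at 0.05 over 11804 genes). That is 20.1% higher and 13.3% lower, against a background of 9.79% of all tested genes higher and 35.2% lower. The median log2 difference was 0.08 over the tested Zfp genes and -0.16 over all tested genes. In bulk RNA, a change in the RNA of every cell and a change in the number of cells that hold it cannot be told apart. The RNA was cytoplasmic and no nuclear sample was measured. A change in total RNA and a change in its export from the nucleus thus cannot be told apart either. The knockdown arrays were both above the control arrays in 107 tested Zfp genes, 40.5%, against 19.7% of all tested genes, and both below in 70, 26.5%, against 51.6%. All 88 called genes were among these.

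The split depended on the scale of the arrays. With quantile scaling 70 Zfp genes were higher and 17 lower, against a background of 17.7% and 22.6% of all tested genes. With the arrays scaled on 9 spike-in probe sets, 34 were higher and 54 lower, against 4.8% and 45.2%. The median of all tested genes was -0.04 with quantile scaling and -0.29 with spike-in scaling, and that of the Zfp genes 0.19 and -0.03. On each of these 3 scales the share higher was larger, and the share lower smaller, in Zfp genes than in all tested genes. Of the 53 genes that rose, 53 were higher with quantile scaling and 34 with spike-in scaling. Of the 35 that fell, 17 were lower with quantile scaling and 35 with spike-in scaling. No Zfp gene called on the deposited scale was called the other way on either. Centring the arrays on all probe sets gave 55 higher (background 10.4%) and 33 lower (32.4%), and centring on those tested gave 73 (17%) and 21 (24.2%). The arrays left out also mattered. Rises numbered 40 without knockdown replicate 1 (background 7.99%), 35 without knockdown replicate 2 (5.97%), 53 without control replicate 1 (9.92%) and 48 without control replicate 2 (8.35%). Falls numbered 25 (27.6%), 29 (30%), 29 (29.2%) and 32 (34.6%) in the same order. With no filter 33 rose (4.61%), on the brightest probe sets 26 rose and 25 fell (12.6% and 47.9%), and at an adjusted p of 0.01 35 rose and 20 fell (6.25% and 26.7%). With the replicate number as a block 58 rose (10.2%).

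**Figure D1:**
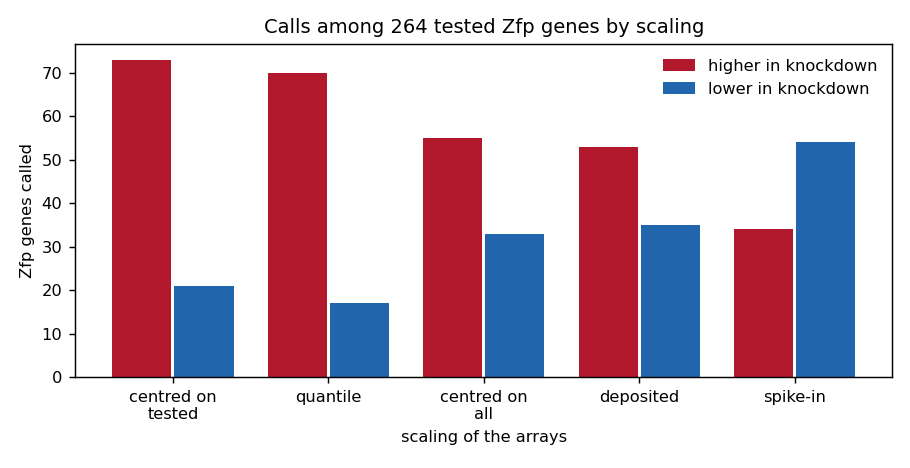
Number of tested Zfp genes called higher (red) and lower (blue) in the knockdown under 5 ways of scaling the arrays, by limma at an adjusted p of 0.05. Higher calls range from 34 with spike-in scaling to 73 with arrays centred on tested probe sets, and lower calls from 17 with quantile scaling to 54 with spike-in scaling.

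Zfp genes were dim. Their median signal was 81.4 over those tested, against 180 over all tested genes, and ranged from 16.6 to 3313. Together they held 0.706% and 0.728% of the summed signal of all tested genes on knockdown arrays, against 0.656% and 0.650% on control arrays. Calls became more frequent with brightness, so shares were also read within 4 classes of mean log2 signal, each with the same number of tested genes. In the dimmest class 12.4% of 113 Zfp genes were higher, against 4.78% of all genes. In the next it was 28.2% of 85 against 9.79%, and in the third class 25.5% of 51 against 11.1%. In the brightest it was 13.3% of 15 against 13.5%. The share lower was below that of all genes in each class, with 6.19% against 12.4%, 11.8% against 31.3%, 25.5% against 44.5% and 33.3% against 52.6%. The higher share of rises was thus present in 3 of the 4 classes and not in the brightest, which holds 2 risen Zfp genes.

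**Figure D2:**
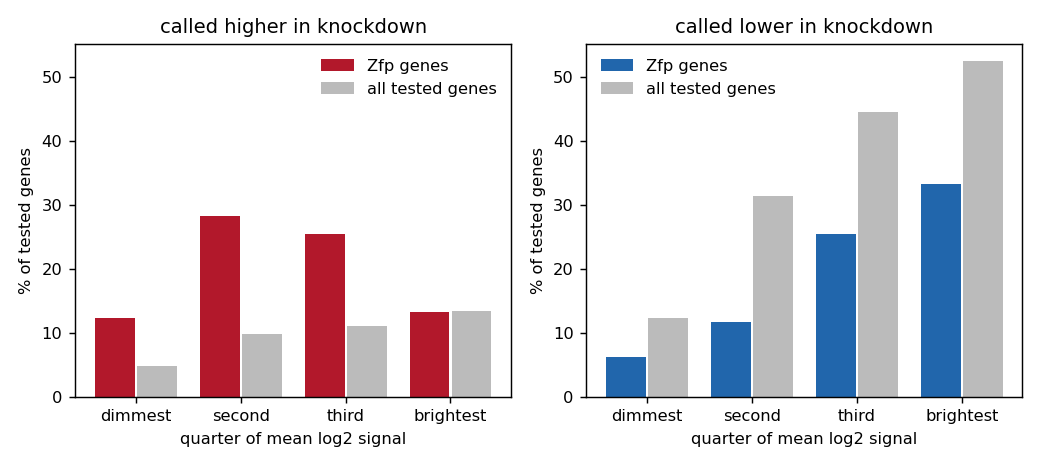
Percentage of tested genes called higher (left) and lower (right) in the knockdown, by class of mean log2 signal over all tested genes (dimmest to brightest), for Zfp genes (coloured) and all tested genes (grey). Zfp genes are more often higher in the 3 dimmer classes, and less often lower in all 4.

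The largest rise was that of Zfp820, a zinc finger gene that read 62.9 and 68.0 on the knockdown arrays against 16.5 and 19.9 on the control arrays. Its log2 difference was 1.25 ± 0.20 (standard error of the limma fit, 2 against 2 arrays, adjusted p = 6.33e-05). Its other probe set was dim and was not tested. Zfp942 read 190.3 and 229.7 in the knockdown against 84.4 and 100.4 in the control, a difference of 1.06 ± 0.13. At the brightest probe set and with 16 added to the signal, these were the only tested Zfp genes past 2-fold in either direction. With 1 added instead, others passed it, such as Zfp128 (1.31) and Zfp33b (-1.11). The dimmer probe set of Zfp386 was also past it with 16 added (1.16), whereas its brightest gave 0.37.

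Zfp758 followed with 72.1 and 98.8 in the knockdown against 30.1 and 41.4 in the control (0.97 ± 0.19). Zfp995 read 137 and 129.8 in the knockdown against 53.8 and 70.3 in the control (0.94 ± 0.15), and its second tested probe set gave 0.95. For both genes each knockdown array was above each control array. The other large rises were those of Zfp503 (0.93), Zfp128 (0.92), Zfp677 (0.86), Zfp930 (0.84), Zfp11 (0.83), Zfp365 and Zfp868 (0.79 each) and Zfp24 (0.78). Replicates spread most for Zfp11, with 103 and 63.4 in the knockdown against 30.3 and 48.5 in the control, and for Zfp677, with 72.6 and 42.6 against 26.2 and 21.5. Without knockdown replicate 1 Zfp11 was at 0.54 and Zfp677 at 0.56, and neither passed (adjusted p = 0.112 and 0.115, limma), nor did Zfp128 at 0.67 (0.0667). With no filter neither Zfp11 nor Zfp677 passed. Zfp930 was higher at both tested probe sets.

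The largest fall was that of Zfp653, which read 37.9 and 44.1 in the knockdown against 88.2 and 100.5 in the control (-0.95 ± 0.17, adjusted p = 0.000165, limma). Zfp513, linked in human to photoreceptor gene expression, read 77.9 and 77.1 in the knockdown against 134.6 and 140.2 in the control (-0.71 ± 0.13). Zfp384, which shuttles between nucleus and cytoplasm and binds runs of A and T, read 310.0 and 360.4 in the knockdown against 586 and 499 in the control (-0.67 ± 0.10). The knockdown arrays lay below the control arrays in each. Zfp692 was brighter still, at 505 and 533 in the knockdown against 832 and 779.7 in the control (-0.62 ± 0.08). The other large falls were Zfp865 (-0.75), Zfp33b (-0.72), Zfp512b (-0.71), Zfp395 (-0.67), Zfp428 (-0.63), Zfp516 and Zfp451 (-0.57 each) and Zfp598 (-0.57). Zfp865 fell at 1 of 2 tested probe sets and Zfp451 at 1 of 4. The mean of their probe sets was -0.38 and -0.09 and did not pass for either. The call of Zfp516 was lost with quantile scaling, with arrays centred on tested probe sets, with no filter and at its other probe set (-0.32). It was also lost without either knockdown array, and without control replicate 2, where the difference was -0.37 (adjusted p = 0.232, limma). Zfp33b did not pass with no filter, without knockdown replicate 2 or without control replicate 2 (adjusted p = 0.0544, 0.0931 and 0.0563, limma), and Zfp395 not without control replicate 1 (0.0503).

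**Figure D3:**
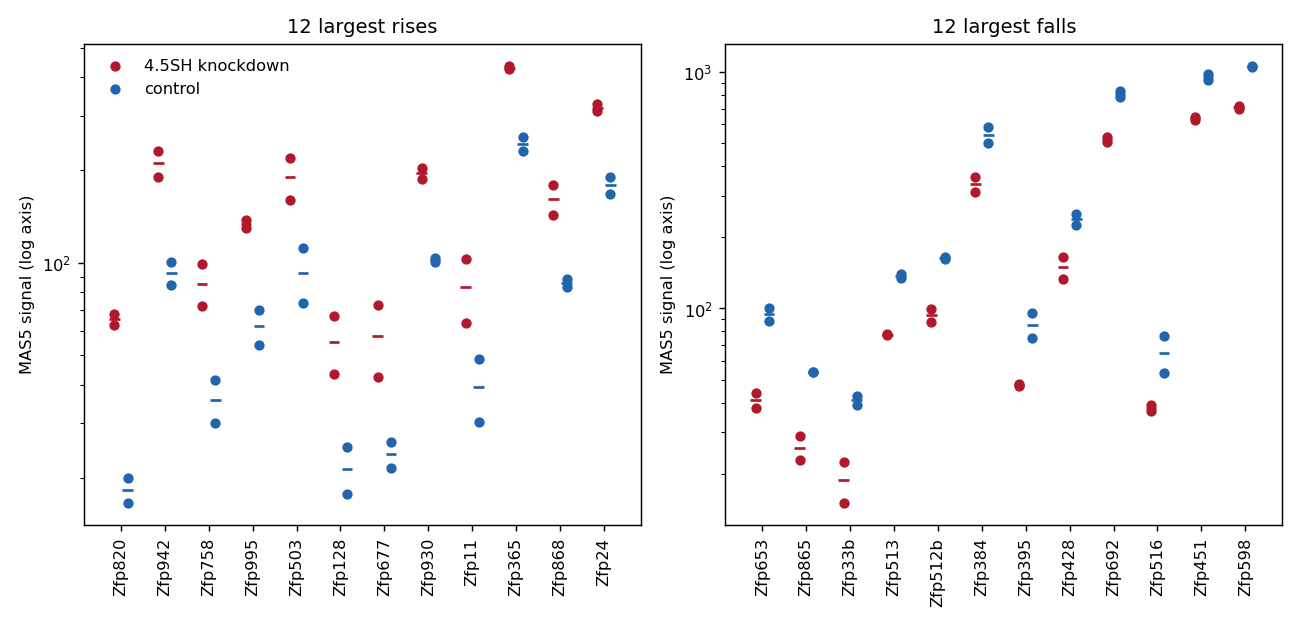
MAS5 signal (log axis) of the 12 largest rises (left) and the 12 largest falls (right) among called Zfp genes. Points are arrays, bars are group means, with the 4.5SH knockdown in red left of the control in blue. The arrays of the groups do not overlap for any of these genes, which was a condition of their choice, and the falls are smaller than the rises of Zfp820 and Zfp942.

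Probe sets of 1 gene mostly went the same way. Of 82 Zfp genes with 2 or more tested probe sets, 56 had all of them on the same side of 0, and none had probe sets called in opposite directions. Of the 53 genes that rose, 21 had a second tested probe set, and in 20 of these all probe sets were positive. All of them passed in 8. Of the 35 that fell, 11 had a second tested probe set, all were negative in 7, and all passed in 1. Only 21 of the 264 tested genes were read at a probe set ending in _x_at or _s_at, the suffixes for probes that may bind other transcripts. Of these 5 rose and 5 fell. Fingers of Zfp genes resemble each other, so cross-hybridisation can also touch probe sets without these suffixes, and its part was not tested.

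Calls were also counted by the place of a gene among its neighbours, and the difference between the places was not tested. In the RefSeq gene order, Zfp genes with at most 2 other protein-coding genes between them were joined into runs. Of 97 tested Zfp genes in runs of 4 or more, 23 rose and 7 fell, with 73.2% of differences above 0 and a median of 0.16. That is 23.7% higher and 7.22% lower, beside 9.79% and 35.2% of all tested genes. Of 104 tested Zfp genes that stood alone, 18 rose and 21 fell, with 48.1% above 0 and a median of -0.01, or 17.3% higher and 20.2% lower. The 59 genes in shorter runs were between, with 12 higher and 7 lower and a median of 0.12. Of the 23 rises in long runs, 10 lay among the 15 tested genes of 1 run, that of Zfp820 described below. The larger share of rises in long runs than among single genes rests on that run. Genes of the long runs were also dimmer, with a median signal of 64.1 against 109 for single genes. In the third class of brightness 5 of 13 genes in long runs rose and 1 fell, against 4 and 9 of 22 single genes, whereas in the second class the share of rises was 29.0% of 31 and 26.3% of 38. With spike-in scaling 17 genes of long runs were higher and 12 lower, against 10 and 32 of the single genes, beside 4.8% and 45.2% of all tested genes. Without knockdown replicate 2 the long runs held 14 higher and 7 lower genes, and the single genes 12 and 16, beside 5.97% and 30% of all tested genes. Neighbours were not treated as independent.

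The run that holds Zfp820 was the one with the most rises. It has 18 protein-coding Zfp genes in the RefSeq table, of which 17 were measured and 15 tested, and 10 of the 15 rose while none fell. Over all tested genes 9.79% were higher and 35.2% lower. The 10 risen genes were Zfp820, Zfp942, Zfp758, Zfp995, Zfp677, Zfp948, Zfp51, Zfp229, Zfp946 and Zfp943. The brightest, Zfp948, read 442 and 492 in the knockdown against 248 and 308 in the control (0.72 ± 0.11). Differences in the run ranged from -0.02 for Zfp983 to 1.25 for Zfp820, with a median of 0.62, and 14 of 15 were above 0. This median was 0.52 with spike-in scaling, where 9 of the 15 rose, beside 4.8% of all tested genes on that scale. Without knockdown replicate 2, 6 of the 15 rose and none fell. The 2 other protein-coding genes between its members were not among the tested genes.

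Other runs moved less, and some in the other direction. Their counts stand beside 9.79% of all tested genes higher and 35.2% lower. In the run of Zfp729b, which has the most Zfp genes, 3 of 10 tested genes rose (Zfp729b, Zfp748 and Zfp58), all 10 differences were above 0, and the median was 0.38. In the run of Zfp868 2 of 4 rose, Zfp868 and Zfp869, with a median of 0.29. The run of Zfp790 and Zfp568 had 2 rises and 1 fall, that of Zfp82, among 11. The run of Zfp282 and Zfp777 had 2 falls among 7, Zfp956 and Zfp777, and a median of -0.29. The run of Zfp688 had 2 falls among 4, Zfp689 and Zfp768, all 4 differences were below 0, and the median was -0.37. In the run of Zfp111 none of 8 passed, and the median was 0.02. Of 12 runs with at least 4 tested genes 10 had a median above 0 and 2 below. With spike-in scaling 7 had a median above 0.

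**Figure D4:**
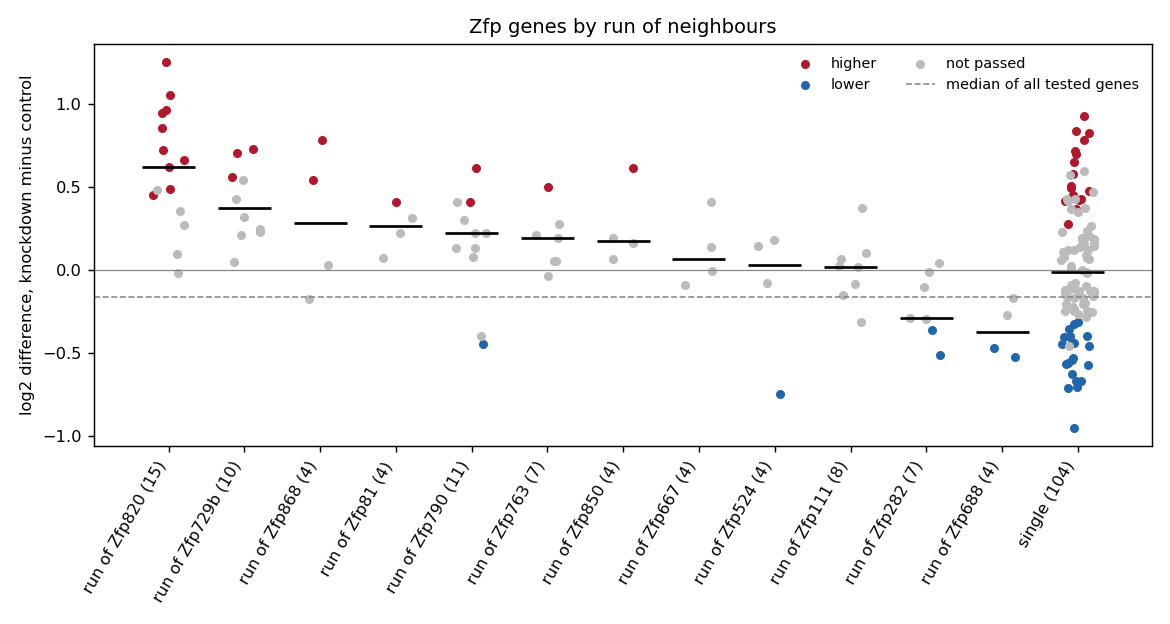
Log2 difference, knockdown minus control, of each tested Zfp gene in the 12 runs of neighbours with at least 4 tested genes and of the Zfp genes that stand alone, numbers of genes in parentheses. Each run is named for its highest gene, black bars are medians, red and blue points passed, grey points did not, and the dashed line is the median of all tested genes, -0.16. The run of Zfp820 has a median of 0.62 and the run of Zfp688 one of -0.37.

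Promoters of the 2 largest rises and the 2 largest falls with a window in the RefSeq table (GRCm38.p6) are shown because these genes changed most. Each runs from 250 bases before to 50 after the start, on the strand of the gene. Capitals mark matches on either strand to 6 motifs: the GC box GGGCGG, the CCAAT box CCAAT, the ETS core CCGGAAG, the cAMP response element TGACGTCA, the TATA box TATAAA and the E box CACGTG.
Zfp820, chr17:21845710-21846009, minus strand: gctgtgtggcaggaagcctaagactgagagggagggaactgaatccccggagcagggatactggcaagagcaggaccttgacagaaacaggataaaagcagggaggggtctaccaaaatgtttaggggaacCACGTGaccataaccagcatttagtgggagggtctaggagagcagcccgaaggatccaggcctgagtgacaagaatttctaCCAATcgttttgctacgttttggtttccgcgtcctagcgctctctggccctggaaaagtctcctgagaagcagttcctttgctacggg
Zfp942, chr17:21962415-21962714, minus strand: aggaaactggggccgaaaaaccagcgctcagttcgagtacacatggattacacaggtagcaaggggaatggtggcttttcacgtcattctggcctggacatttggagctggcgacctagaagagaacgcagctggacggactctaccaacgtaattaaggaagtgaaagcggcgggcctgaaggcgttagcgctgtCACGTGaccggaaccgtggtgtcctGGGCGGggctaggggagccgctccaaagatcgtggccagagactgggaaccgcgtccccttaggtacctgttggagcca
Zfp653, chr9:22071327-22071626, minus strand: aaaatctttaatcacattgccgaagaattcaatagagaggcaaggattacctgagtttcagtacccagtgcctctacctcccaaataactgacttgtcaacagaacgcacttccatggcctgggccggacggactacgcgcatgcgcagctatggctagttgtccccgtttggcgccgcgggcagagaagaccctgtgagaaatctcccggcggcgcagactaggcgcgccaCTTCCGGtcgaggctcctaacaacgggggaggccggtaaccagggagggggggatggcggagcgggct
Zfp33b, chr5:104571422-104571721, plus strand: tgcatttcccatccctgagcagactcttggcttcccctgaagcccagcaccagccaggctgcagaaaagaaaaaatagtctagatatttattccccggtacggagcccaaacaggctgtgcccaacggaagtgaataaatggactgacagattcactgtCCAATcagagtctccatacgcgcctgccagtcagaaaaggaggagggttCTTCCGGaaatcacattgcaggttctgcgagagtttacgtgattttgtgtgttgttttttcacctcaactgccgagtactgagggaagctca
The window of Zfp820 held an E box and a CCAAT box and that of Zfp942 an E box and a GC box. That of Zfp653 held an ETS core, and that of Zfp33b a CCAAT box and an ETS core. No 2 matches overlapped in these windows. They had 9, 20, 22 and 9 CpG dinucleotides, in the same order.

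Over all windows of tested genes, 37.5% held the CCAAT box, 61.5% the GC box, 17.1% the ETS core and 9.68% the E box. Over the 336 windows of Zfp genes it was 43.8%, 46.4%, 19.9% and 5.95%. Of 53 windows of risen Zfp genes, which belong to 44 genes, 60.4% held the CCAAT box, 49.1% the GC box and 13.2% the ETS core. Of 37 windows of fallen Zfp genes, which belong to 29 genes, 24.3% held the CCAAT box, 64.9% the GC box and 32.4% the ETS core. Of 179 windows of Zfp genes that did not pass, 46.4% held the CCAAT box and 19.6% the ETS core. For all tested genes the CCAAT box was about as common in windows of genes that were higher (37.7%) as in those that were lower (36.6%). Windows of risen Zfp genes had a median of 14 CpG dinucleotides, those of fallen Zfp genes 22, and those of all tested genes 20. The E box was in 11.3% of windows of risen and 5.41% of windows of fallen Zfp genes, the TATA box in 5.66% and 2.70%, and the cAMP response element in 1.89% and 2.70%, against 9.68%, 7.52% and 3.07% of windows of tested genes. A match is a string of letters and not a measured site.

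The E box recurred within the run of Zfp820, a set singled out after its values were seen. Of 9 risen genes of the run with a window, 5 held CACGTG (Zfp820, Zfp942, Zfp758, Zfp943 and Zfp946), as did Zfp944, which did not pass, and Zfp994, which was below the filter. Zfp942 and Zfp943 share 1 site, as do Zfp758 and Zfp944, so the 5 risen genes hold 4 sites and all 7 genes 5. Its surroundings are shown with 15 bases on each side, on the strand of the gene, the E box in capitals, because they show which of these starts are copies of each other.
Zfp758, window chr17:22361213-22361512, plus strand: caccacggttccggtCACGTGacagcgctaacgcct
Zfp820, window chr17:21845710-21846009, minus strand: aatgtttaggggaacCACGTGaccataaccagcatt
Zfp942, window chr17:21962415-21962714, minus strand: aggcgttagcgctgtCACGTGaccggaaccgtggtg
Zfp943, window chr17:21962309-21962608, plus strand: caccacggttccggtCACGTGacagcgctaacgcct
Zfp944, window chr17:22361351-22361650, minus strand: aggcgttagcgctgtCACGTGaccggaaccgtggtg
Zfp946, window chr17:22423952-22424251, plus strand: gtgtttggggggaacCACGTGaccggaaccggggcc
Zfp994, window chr17:22225565-22225864, minus strand: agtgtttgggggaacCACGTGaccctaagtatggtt
The stretches of Zfp942 and Zfp944 were identical, as were those of Zfp758 and Zfp943, and each pair was the reverse complement of the other. Zfp942 and Zfp943 start back to back, with 194 bases of their windows in common, and both rose, by 1.06 and 0.45. Zfp758 and Zfp944 start back to back as well, with 162 bases in common. Zfp758 rose by 0.97, whereas Zfp944 read 118 and 113 in the knockdown against 93.5 and 122 in the control (0.10 ± 0.14) and did not pass at its brightest probe set. A second tested probe set of Zfp944, at 73 and 64 in the knockdown against 49.9 and 34.8 in the control, was higher by 0.54 (adjusted p = 0.0334 over all tested probe sets, limma). These were the only pairs of Zfp genes with overlapping windows on opposite strands. Zfp995, Zfp948, Zfp677 and Zfp229 rose without this motif in their windows, and Zfp51 had no window in the table.

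KRAB zinc finger genes known to keep imprints or to silence retroelements were, on the deposited scale, higher or not called. Of 7 listed 6 were tested, 4 rose and none fell, with a median of 0.30. That is 66.7% higher and 0% lower, beside 9.79% and 35.2% of all tested genes and 20.1% and 13.3% of tested Zfp genes. Zfp568, which represses a placental promoter of Igf2, read 215 and 241 in the knockdown against 169.7 and 164.8 in the control (0.41 ± 0.11, adjusted p = 0.00626, limma). Zfp445, a keeper of imprints, was at 0.28 ± 0.10, Zfp932, which binds endogenous retroviruses, at 0.42 ± 0.15, and Zfp961 at 0.32 ± 0.11. In each of the 4 the knockdown arrays lay above the control arrays. The other tested probe sets of Zfp445 gave 0.24 and 0.20 and did not pass, nor did the mean of its probe sets. With no intensity trend Zfp445 and Zfp961 did not pass, and with no filter Zfp932 and Zfp961 did not. None of the 4 passed with spike-in scaling or without knockdown replicate 2. Zfp932 was also lost without knockdown replicate 1 or control replicate 1, and Zfp445 without control replicate 2. The imprint keeper Zfp57 was dim, at 18.4 and 16.9 in the knockdown against 25.7 and 11.8 in the control, and its groups overlapped, as did those of the retrovirus silencer Zfp809 (55.5 and 58.8 against 64.8 and 36.7). Zfp708 was below the filter.

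Of 10 listed genes named Zfp that act on RNA 8 were tested, 2 fell, 1 rose and 5 did not pass, with a median of -0.10. That is 25% lower and 12.5% higher, beside 35.2% and 9.79% of all tested genes, and the list does not stand apart by these counts. Zfp622, a maturation factor of the large ribosomal subunit and the brightest Zfp gene, read 2871 and 2708 in the knockdown against 3916 and 3759 in the control (-0.46 ± 0.05, adjusted p = 1.89e-06, limma), and fell at 3 of 4 tested probe sets. Zfp598, the ubiquitin ligase that marks collided ribosomes, read 721 and 696 in the knockdown against 1061 and 1053 in the control (-0.57 ± 0.07). Both fell with no overlap of the groups, and under every alternative run for named genes. Zfp106, an RNA-binding protein needed by motor neurons, rose by 0.28 ± 0.09 and was higher at 3 of 4 tested probe sets. It did not pass with spike-in scaling, with no intensity trend, without knockdown replicate 2 (0.21, adjusted p = 0.181, limma) or without control replicate 1. The kinetochore and splicing protein Zfp207 was at 0.06, the RNA-binding Zfp638 at -0.12, Zfp326, a subunit of a splicing complex, at -0.07, Zfp830 at -0.13 and Zfp385a at 0.07, and none of these passed. Zfp207 was lower at another probe set, which read 78.0 and 78.3 in the knockdown against 189 and 144.6 in the control, and Zfp638 was higher at another, which gave 0.47.

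Of the CCCH finger proteins, which speed the decay of AU-rich messenger RNAs, Zfp36 (tristetraprolin) fell, with 146 and 136 in the knockdown against 201 and 182 in the control (-0.40 ± 0.12, adjusted p = 0.0113, limma). It did not pass with quantile scaling, with arrays centred on tested probe sets, without knockdown replicate 2 or without control replicate 1 (adjusted p = 0.0927, 0.0697, 0.0798 and 0.0755, limma). Zfp36l1 was at 0.43 ± 0.17 and Zfp36l2 at -0.17 ± 0.07, and both missed the threshold (adjusted p = 0.0511 and 0.0537, limma), Zfp36l1 passing as higher with quantile scaling and Zfp36l2 as lower with spike-in scaling. The groups of arrays did not overlap for any of the 3. Over all tested genes the knockdown arrays were likewise both above in 19.7% and both below in 51.6%.

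Among listed genes of nervous system development and neurotrophin signalling, 15 were measured and 11 tested, of which 3 rose, 2 fell and 6 did not pass, with a median of -0.11. That is 27.3% higher and 18.2% lower, beside 9.79% and 35.2% of all tested genes. Zfp365, a DISC1-binding protein of neurons, read 424 and 436 in the knockdown against 255 and 230.3 in the control (0.79 ± 0.10, adjusted p = 4.6e-06, limma), and its dimmer probe set gave 0.31 and did not pass. Zfp24, needed for myelination by oligodendrocytes, read 309.8 and 328 in the knockdown against 190.2 and 168 in the control. It passed at 2 of 6 tested probe sets, all 6 of them positive, and their mean was 0.50. Zfp503, a repressor of the developing striatum, read 159.8 and 219 in the knockdown against 111 and 73.8 in the control. Zfp423, a partner of EBF and SMAD factors in cerebellar development, read 269 and 283 in the knockdown against 423 and 396 in the control (-0.54 ± 0.09). The 3 rises and the fall of Zfp423 held with both quantile and spike-in scaling. Zfp335 was the other gene that fell, and it was not called lower with quantile scaling. Zfp521, Zfp536, Zfp711 and Zfp804a were below the filter.

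Of the pluripotency genes Zfp281, a regulator of embryonic stem cells, read 243 and 255 in the knockdown against 154.6 and 140.3 in the control (0.70 ± 0.11, adjusted p = 7.5e-05, limma), and rose at both probe sets. Zfp322a (0.42), Zfp296 (0.19) and Zfp217 (-0.01) did not pass, and Zfp42, the stem cell marker Rex1, was at or below 6.0 on every array. Of 11 tested genes in the list of promoter-binding activators and chromatin partners 2 rose, 3 fell and 6 did not pass. These shares, 18.2% higher and 27.3% lower, stand beside 9.79% and 35.2% of all tested genes. Zfp410, the activator of the remodeller gene Chd4, read 671 and 745 in the knockdown against 1132 and 973 in the control (-0.56 ± 0.08) and fell at both tested probe sets. Chd4 itself was at -0.28 ± 0.13 and did not pass, though it was lower with spike-in scaling (-0.41). The SUMO ligase Zfp451 and Zfp516, an activator of brown fat genes, fell as given above, with the losses of call named there. Zfp462, a chromatin regulator of stem cells, rose by 0.43 ± 0.12 at both tested probe sets and Zfp644, a partner of the methyltransferase G9a, by 0.37. Neither passed with spike-in scaling.

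The corepressors on which KRAB zinc finger proteins depend were lower or not called, with 1 exception. Of 33 listed 30 were measured and 28 tested, of which 12 fell, 1 rose and 15 did not pass, with a median of -0.21. This is 42.9% lower and 3.57% higher, not far from the background of 35.2% and 9.79%. Trim28, the central corepressor, read 2189 and 2160.5 in the knockdown against 2406 and 2335 in the control (-0.12 ± 0.05, adjusted p = 0.0734, limma) and did not pass, though it was lower with spike-in scaling. Setdb1 read 344 and 399 in the knockdown against 527 and 499 in the control (-0.45 ± 0.09, adjusted p = 0.000753, limma). The maintenance methyltransferase Dnmt1 fell by 0.89 ± 0.06, its partner Uhrf1 by 0.61 ± 0.07, the heterochromatin protein Cbx5 by 0.69 ± 0.08 and the deacetylase Hdac1 by 0.34 ± 0.06. Setdb1 and these 4 also fell with quantile scaling. On that scale 9 of the 28 tested corepressors were lower and 6 higher, beside 22.6% and 17.7% of all tested genes. The exception was Atf7ip, a partner of Setdb1, which rose by 0.40 ± 0.15 and did not pass with spike-in scaling.

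The remaining 71 Zfp genes were below the filter, with mean signals from 0.6 to 17.1 and a median of 9.73. The knockdown arrays were both above the control arrays in 18 of them, both below in 14, and the groups overlapped in 39. The same shares over all genes below the filter were not counted, so these numbers have no background and are not read as a result. These genes were not tested, and at such signals no difference could be read.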

How the data were processed

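Per the submitters' processing notes the authors deposited MAS5 intensities, 1 linear signal per probe set. Software version, scaling target and filters are not stated there. Here 45101 probe sets were read, 64 of them controls. Of the rest 34945 carried 1 symbol, 932 several and 9160 none, and 34741 were matched by Entrez identifier to the RefSeq table of GRCm38.p6. Values were taken as log2(signal + 16). Probe sets with a mean at or above the median were kept (22519), and 1 per gene, the brightest, entered limma 3.58.1 in R 4.3.3 (lmFit, eBayes with an intensity trend, two-sided). The smallest two-sided p of an exact permutation test over these 4 arrays is 0.333, so each adjusted p rests on the variance shared across genes. In simulated data for this comparison (11804 genes), limma found 91 of the 100 genes given a log2 difference of 1 and 57 of the 100 given 0.5. It also called 5 of the 11604 left unchanged. Unlike the data, the simulated arrays had few changed genes and no difference in scale, so these counts do not cover errors from scaling. Spike-in scaling divided each array by the geometric mean of 9 hybridisation controls.

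The members and lists were chosen with earlier results of these data known, so no list was tested as a set. Genes named in the text are the 12 largest rises and falls called without overlap and listed members (the 4 smallest p where a list has over 8 tested). The rule also takes the 5 brightest, Trim28 and the 4 corepressors with the smallest p. Members named with a run of neighbours, Zfp335, Zfp386, Zfp644, Setdb1, Atf7ip, Chd4, and genes below the filter were added after their values were seen. Runs and promoter windows come from RefSeq tables, and 273 Zfp genes had a window. An NRF1 motif was searched as well and is left out here. A count of fingers and KRAB domains needs protein sequences, which were not used here. Python 3.11.15 and matplotlib 3.10.9 made the figures.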

Additional observations from a re-analysis of the deposited data

How the results depend on the processing

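Against 53 rises among Zfp genes in the reported fit, there were 34 with spike-in scaling, 33 without the filter (over 335 Zfp genes), 26 on the brightest 25% of probe sets alone and 35 at an adjusted p of 0.01. Against 35 falls there were 17 with quantile scaling, 21 with arrays centred on tested probe sets, 20 at 0.01 and 54 with spike-in scaling. Leaving out 1 array gave 35 to 53 rises, 25 to 32 falls and a median from 0.07 to 0.12. The median moved to 0.19 with quantile scaling, 0.22 with arrays centred on tested probe sets, -0.026 with spike-in scaling and -0.067 on the brightest 25%. The filters change which genes are tested. For the other settings the cause was not tested. Pseudocounts of 1 and 64, centring on all probe sets, no intensity trend, the mean of probe sets, dropping _x_at and _s_at probe sets, symbols as annotated and adjustment over all probe sets kept both counts within 1.5 times.

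The labels name no batch, and the deviations of same-numbered arrays correlated at 0.02 across genes. With 2 arrays per group this does not settle whether same-numbered arrays form pairs. With a replicate block 58 Zfp genes rose and 38 fell.

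Some named genes that did not pass changed sign. With quantile scaling Zfp217 was at 0.081, Zfp326 at 0.12, Zfp330 at 0.036, Zfp57 at 0.017, Zfp638 at 0.054 and Zfp830 at 0.034. With arrays centred on tested probe sets Zfp217 was at 0.12, Zfp326 at 0.060, Zfp57 at 0.12, Zfp638 at 0.0089 and Zfp830 at 0.0037, and centred on all probe sets Zfp217 was at 0.0080 and Zfp57 at 0.0041. With spike-in scaling Zfp207 was at -0.085 and Zfp385a at -0.048, and as the mean of probe sets Zfp207 was at -0.16, Zfp638 at 0.16 and Zfp830 at 0.090. A pseudocount of 1 gave 0.012 for Zfp57. Leaving out 1 array gave -0.14 to 0.11 for Zfp217, -0.073 to 0.21 for Zfp385a, -0.31 to 0.28 for Zfp57 and -0.14 to 0.47 for Zfp809. Of the 48 genes named by the rule, for which these alternatives were run, none that passed in the reported fit changed its sign.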

Other observations

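Other families with C2H2 fingers were read in the same fit. Of 37 tested Zbtb genes, which pair fingers with a BTB domain, 4 rose and 7 fell, with a median of -0.03. Of 7 tested Zscan genes 1 rose and 1 fell, and of 8 tested Zkscan genes none rose and 1 fell. Of 13 tested Klf genes, which have few fingers and bind GC-rich promoters, 4 rose and none fell, with a median of 0.04. Of all tested genes 9.79% were higher and 35.2% lower, against 10.8% and 18.9% of the Zbtb genes and 30.8% and 0% of the Klf genes. These counts stand beside 53 rises and 35 falls among 264 Zfp genes with a median of 0.08, and the differences between the families were not tested.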
